A study of Mus musculus with 14 samples.

Results

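The 6 genes that encode subunits of the photoreceptor phosphodiesterase PDE6, Pde6a, Pde6b, Pde6c, Pde6g, Pde6h and Pde6d, and Aipl1, which encodes a chaperone of the enzyme, were examined in sorted mouse photoreceptors. These 7 genes were chosen by name, with earlier results of these data known. All 7 were among the 24421 genes of the RNA-seq count table and passed its filter on low counts, which kept 12327 genes. In the ATAC-seq count table, 95 of 53204 open chromatin elements (200 bp each) lay within 50 kb of a member gene. Pde6d had 17 of these elements, Aipl1 20, Pde6a 16, Pde6g 13, Pde6c 11, Pde6b 10 and Pde6h 8. A member's start site was the nearest start site of 38 of them.

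PDE6 is the effector enzyme of phototransduction. Light-activated opsin switches on transducin, transducin relieves the inhibitory subunits of PDE6, and the catalytic subunits then hydrolyse cGMP, so that cGMP-gated channels close. Rods use a catalytic heterodimer of the products of Pde6a and Pde6b with the inhibitory subunit from Pde6g, whereas cones use a homodimer of the Pde6c product with the inhibitory subunit from Pde6h. The catalytic subunits are prenylated. The Pde6d product binds prenylated proteins and carries them through the cell, and the Aipl1 product is needed to fold and assemble PDE6.

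Photoreceptors were sorted by flow cytometry from retinas of C57BL/6 mice aged 8 weeks. Rods came from Nrl-eGFP mice, in which the promoter of the rod transcription factor gene Nrl drives a fluorescent protein. Nrl-/- photoreceptors came from Nrl-eGFP;NrlKO mice, which carry the same reporter but lack Nrl, so that cells of the rod lineage take on a cone-like state, and they are labelled blue cones. Green cones came from Opn1mw-GFP mice, in which a cone opsin promoter drives the reporter, and went through a single or a double sort. The study reports that green cones needed the double sort for the best purity, and its accessibility test left single-sorted ones out. RNA-seq covered 3 rod and 3 Nrl-/- libraries, and ATAC-seq covered 2 libraries each of rods, Nrl-/- photoreceptors, single-sorted and double-sorted green cones. Rods and Nrl-/- photoreceptors differ in both genotype and cell state, which cannot be told apart here, and green cones have no RNA-seq library among those analysed.

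Each RNA library held 18376770 to 26312895 counts assigned to genes, and each ATAC library held 1062403 to 5770075 counts in elements, with the double-sorted green cones the shallowest. Levels are given as CPM, counts relative to the library total after TMM scaling. Nrl itself stood at 599, 845 and 745 CPM in the rod libraries and at 34.5, 39.3 and 24.6 CPM in the Nrl-/- libraries. Markers of cones, 7 genes in all, summed to 522 to 533 CPM in rods but reached 75338 to 85022 CPM in Nrl-/- photoreceptors. Markers of rods, 6 genes, summed to between 79568 and 110713 CPM in rods, while Nrl-/- photoreceptors held 8635 to 12898 CPM, most of it Sag. The 5 markers of bipolar cells reached 25.9 to 48.7 CPM in rods but 1357 to 1553 CPM in Nrl-/- photoreceptors, nearly all of it Cabp5, and the defining bipolar gene Grm6 averaged 6.37 CPM there. The study's sample table places single-sorted green cone replicate 1 in the Nrl-/- line, against its label. An element inside Nrl (GRCm38 chr14:55521184-55521383) had 0 counts in both Nrl-/- ATAC libraries and 176 counts in that library.

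The RNA-seq comparison asked which PDE6 genes differ between rods and Nrl-/- photoreceptors. Pde6a and Pde6b were higher in rods, and Pde6c, Pde6h and Pde6d were higher in Nrl-/- photoreceptors, each by edgeR's quasi-likelihood test against a log2 fold change of 1. Pde6g and Aipl1 did not pass. Thus 2 of 7 members were called higher in rods, where 6.88% of all genes tested were, and 3 of 7 in Nrl-/- photoreceptors, where 13.3% of all genes were. All 5 calls held under each alternative run. Rod and Nrl-/- libraries did not overlap for any of the 7 members, which was so for 67% of all genes. In these bulk libraries, fewer cells of a type and less RNA per cell cannot be told apart. The study calls these libraries biological replicates. The labels do not say whether replicates came from separate animals, so the p-values measure the spread between these libraries. The study's sample table lists the same number of sorted cells for rod RNA replicates 2 and 3, so whether these were separate sorts is not settled, although their counts differed by more than sampling noise.

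Among the catalytic subunits, Pde6b is the beta subunit of rods (GRCm38 chromosome 5, 108388373 to 108431743, plus strand, 22 exons). The rod libraries gave 13927, 14837 and 13757 CPM of Pde6b, and the Nrl-/- libraries gave 178, 172 and 156 CPM. All rod libraries were far above all Nrl-/- libraries, with a log2 fold change of 6.39 ± 0.16 (SE, n = 3 and 3, adjusted p = 6.55e-11 by edgeR). For Pde6a, the alpha subunit of rods, the rod libraries gave 1610, 2043 and 1815 CPM and the Nrl-/- libraries 233, 221 and 188 CPM. Again the groups lay far apart, with a log2 fold change of 3.09 ± 0.15 (adjusted p = 3.93e-08 by edgeR). For Pde6c, the catalytic subunit of cones (chromosome 19, 38132781 to 38183955, plus strand, 22 exons), the rod libraries gave 23.9, 25.4 and 27.4 CPM and the Nrl-/- libraries 3562, 3503 and 3167 CPM. Its log2 fold change of -7.06 ± 0.16 (adjusted p = 4.33e-11 by edgeR) was the largest in size of the 7 members.

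The inhibitory subunits were less evenly divided. Pde6h is the cone form (chromosome 6, 136952218 to 136963485, plus strand), and its rod libraries gave 15.1, 17.4 and 13.7 CPM against 1240, 1566 and 2054 CPM in the Nrl-/- libraries. The Nrl-/- libraries spread more than those of the catalytic genes but were all far above rods (log2 fold change -6.71 ± 0.22, adjusted p = 4.21e-10 by edgeR). Pde6g is the rod form (chromosome 11, 120447607 to 120453500, minus strand), and its rod libraries gave 4539, 6307 and 4920 CPM against 2111, 2279 and 2244 CPM in the Nrl-/- libraries. Every rod library was higher, yet the log2 fold change of 1.25 ± 0.15 did not pass the test (adjusted p = 0.0765 by edgeR). Without rod replicate 1 it passed (1.35, adjusted p = 0.0194), and over the alternatives the adjusted p ran from 1.91e-05, with no fold threshold, to 0.522, with DESeq2.

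Residual levels were set beside those of marker genes. In rods, Pde6c stood at 0.749% and Pde6h at 0.953% of their mean Nrl-/- level. The 7 cone markers stood at 0.477% (Cngb3) to 1.17% (Arr3) there, with a median of 0.613%, so Pde6c and Pde6h lay within the range of these markers. In Nrl-/- photoreceptors, Pde6b stood at 1.19%, Pde6a at 11.7% and Pde6g at 42.1% of their mean rod level. The 6 rod markers had a median of 0.207% there and reached 59.5% (Sag). The part of other cells in the sorts in these residual levels was not tested.

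The genes that act on PDE6 stood lower in rods. For Pde6d, the prenyl-binding subunit (chromosome 1, 86543012 to 86582785, minus strand), the rod libraries gave 66.6, 90.9 and 94.6 CPM and the Nrl-/- libraries 197, 253 and 322 CPM. The groups did not overlap, and the log2 fold change of -1.61 ± 0.19 passed the test (adjusted p = 0.00415 by edgeR). For Aipl1 (chromosome 11, 72028717 to 72042460, minus strand), the rod libraries gave 1130, 1351 and 1263 CPM and the Nrl-/- libraries 2414, 2708 and 2928 CPM. Every Nrl-/- library was higher, but the log2 fold change of -1.10 ± 0.13 did not pass (adjusted p = 0.307 by edgeR), and of the alternatives only the test with no fold threshold called it (1.96e-05). Pde6d, Aipl1, Pde6c, Pde6a and Pde6b each overlap an annotated gene or pseudogene on the other strand (Cops7b and Pimreg for Pde6d and Aipl1), and the strand setting of the read counting is not given in the sources used here, so reads of such partners cannot be told apart.

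**Figure D1:**
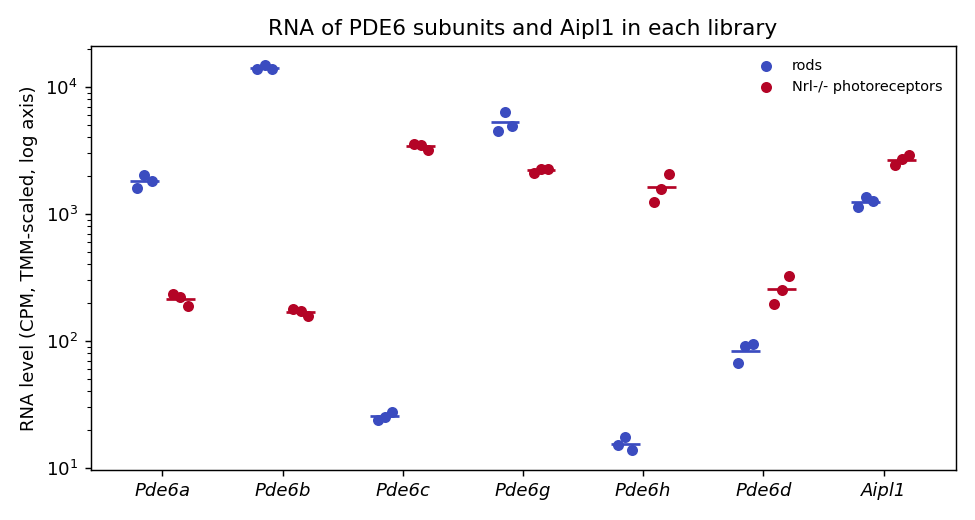
RNA level of each member (x axis) in CPM on a log axis, with a point for each of 3 rod and 3 Nrl-/- libraries and a line at each group's mean. Pde6a, Pde6b and Pde6g lie higher in rods and Pde6c, Pde6h, Pde6d and Aipl1 lie higher in Nrl-/- photoreceptors, and the groups of each member do not overlap.

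Levels were compared between members only per length, as CPM per kilobase of merged exons. In rods, Pde6g (5718 ± 1012, SD, n = 3) and Pde6b (5031 ± 206) led, and their libraries overlapped. Aipl1 followed at 793 ± 70.7, Pde6a at 428 ± 50.9, Pde6d at 57.1 ± 10.3, Pde6h at 27.7 ± 3.33 and Pde6c at 8.61 ± 0.581, and from Pde6b downwards no neighbours in this order overlapped. In Nrl-/- photoreceptors, Pde6h (2903 ± 734) and Pde6g (2406 ± 96.4) led, again with overlapping libraries. Below them stood Aipl1 at 1704 ± 163, Pde6c at 1150 ± 71.9, Pde6d at 175 ± 42.7, Pde6b at 59.9 ± 4.07 and Pde6a at 50.3 ± 5.53, without overlap between neighbours. The order depended on the length used, since with coding lengths the means of Pde6g and Pde6h (8377 and 6429) and of Pde6a and Pde6b (82.9 and 65.7) changed places in Nrl-/- photoreceptors.

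The make-up of the PDE6 RNA was computed from these levels and is given as a description, with no test. Pde6c made up 0.151%, 0.149% and 0.173% of the catalytic RNA per length (Pde6a, Pde6b and Pde6c together) in the rod libraries, and 91.0%, 91.3% and 91.5% in the Nrl-/- libraries. Pde6h made up 0.546%, 0.453% and 0.458% of the inhibitory RNA (Pde6g and Pde6h) in the rod libraries, but 49.2%, 53.1% and 60.1% in the Nrl-/- libraries. The catalytic RNA was thus nearly all of the cone form in Nrl-/- photoreceptors, whereas the inhibitory RNA held both forms. The catalytic sum was 5468 ± 249 CPM per kilobase in rods and 1260 ± 81.5 in Nrl-/- photoreceptors, or 23.0% of the rod sum. The inhibitory sum was 5746 ± 1015 and 5310 ± 802, and its libraries overlapped between the groups. With coding lengths in place of merged exons the inhibitory sums were 17254, 23959 and 18690 in the rod libraries and 12918, 14848 and 16651 in the Nrl-/- libraries, which did not overlap. Inhibitory over catalytic RNA was 0.932, 1.20 and 1.01 in the rod libraries and 3.43, 4.09 and 5.25 in the Nrl-/- libraries. With coding lengths this ratio was 2.85, 3.65 and 3.08 in the former and 8.40, 9.85 and 12.3 in the latter, so its size depends on the length while its order between the groups did not change. Pde6b over Pde6a was 11.8 ± 1.10 in rods and 1.20 ± 0.053 in Nrl-/- photoreceptors, and with coding lengths the latter turned to 0.795 ± 0.035. Aipl1 over the catalytic sum was 0.145 ± 0.0089 in rods and 1.36 ± 0.217 in Nrl-/- photoreceptors.

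**Figure D2:**
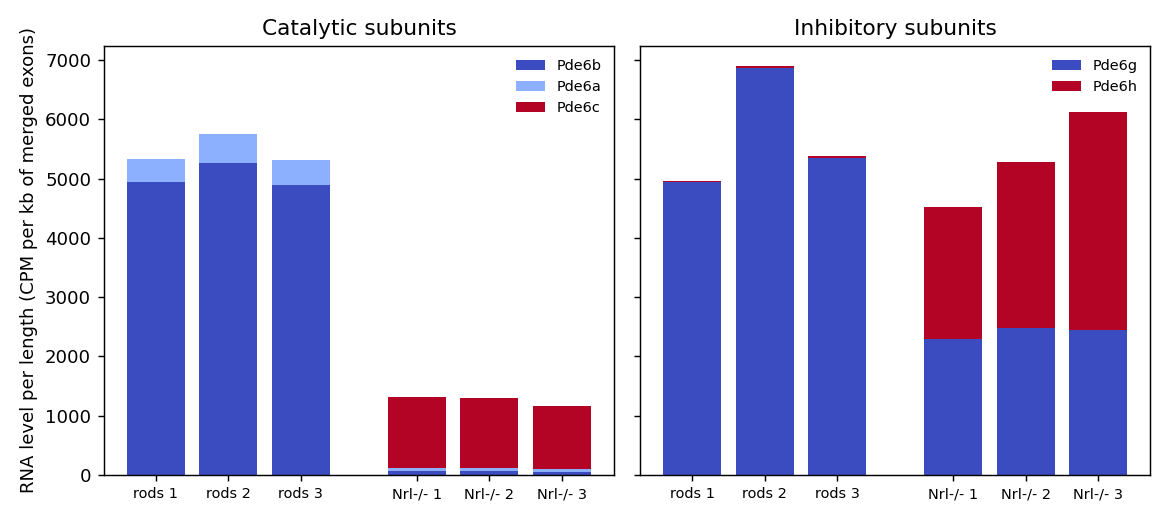
Stacked RNA levels per length (CPM per kilobase of merged exons, linear axis from 0) of catalytic subunits (left) and inhibitory subunits (right) in each of the 6 RNA libraries. The catalytic bars are lower in Nrl-/- photoreceptors and nearly all Pde6c, whereas the inhibitory bars overlap in height between the groups at this length measure and hold both Pde6g and Pde6h in Nrl-/- photoreceptors.

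Other genes of the phototransduction cascade were read from the same fit. Of 27 listed, 11 were called in rods (6.88% of all genes tested) and 9 in Nrl-/- photoreceptors (13.3% of all genes), with 7 not passing. Their median log2 fold change was 1.02 against 0.0080 over all genes tested. Towards Nrl-/- photoreceptors, the largest in size was that of the cone marker Cngb3 (-7.71 ± 0.20). Large log2 fold changes towards rods were those of Cnga1, a rod cGMP-gated channel subunit (9.18 ± 0.25), Gnat1, the rod transducin alpha subunit (8.90 ± 0.27), and Gnb1, its beta subunit (7.81 ± 0.22). Gngt1, the rod transducin gamma subunit, had a log2 fold change of 1.02 ± 0.16 and Sag, rod arrestin, one of 0.75 ± 0.17, and neither passed.

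Other cyclic nucleotide phosphodiesterases were mostly low. Of 18 listed, 13 passed the filter on low counts, with a median log2 fold change of -1.60. By edgeR, 5 were higher in Nrl-/- photoreceptors (13.3% of all genes tested) and 0 in rods (6.88% of all genes). The count in rods was also 0 at an unadjusted p below 0.05 and by DESeq2. The largest changes were those of Pde1c, which hydrolyses cAMP and cGMP (mean 0.712 CPM in rods, 29.6 in Nrl-/- photoreceptors), Pde3a (0.0911 and 1.34 CPM), Pde7b (0.0899 and 1.32 CPM) and Pde4d (0.469 and 6.10 CPM). The highest of the 18 was Pde8b, a cAMP phosphodiesterase, at 329 CPM in rods and 358 in Nrl-/- photoreceptors, which did not pass.

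Genes that prenylate, fold or carry prenylated proteins mostly did not pass, which was so for 9844 of all 12327 genes tested. Of 19 listed, 1 was called in rods (6.88% of all genes tested) and 1 in Nrl-/- photoreceptors (13.3% of all genes). The median log2 fold change was -0.22. Arl13b, a ciliary GTPase that activates Arl3, averaged 131 CPM in rods and 22.0 in Nrl-/- photoreceptors (2.57 ± 0.14). Hsp90ab1, a chaperone, averaged 281 and 837 CPM (-1.58 ± 0.14). Arl3, which releases cargo from the Pde6d product, had a log2 fold change of -0.44 ± 0.13, and Unc119, a carrier of lipidated transducin, one of 0.09 ± 0.19.

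The genes whose profiles over the 6 RNA libraries were most like each member's were found by the Euclidean distance between mean-centred log2 levels. Before the logarithm 0.5 CPM was added, which shrinks the changes of genes with low levels, so a close profile can have an unlike fold change. For Pde6c they were Camk2b (distance 0.276), Cxx1c (0.301) and Fam19a3 (0.349), and for Pde6h they were Moxd1 (0.295), the cone opsin gene Opn1mw (0.317) and Agpat9 (0.427). For Pde6b they were Nipal1 (0.366), Aqp1 (0.397) and Glb1l2 (0.400), and for Pde6a they were Mir124a-2 (0.316), Rp1 (0.324) and B4galt1 (0.336). Nipal1 averaged 38.7 CPM in rods and 0.0392 in Nrl-/- photoreceptors (log2 fold change 9.77, against 6.39 for Pde6b). Mir124a-2 averaged 7.66 and 0.376 CPM (4.33, against 3.09 for Pde6a). Pde6g was closest to Gtf3c3 (0.111), Hnrnpu (0.135) and Elmod2 (0.152), Pde6d to Guk1 (0.201), Itm2b (0.239) and Igsf8 (0.262), and Aipl1 to Rtn3 (0.0992), Maged1 (0.101) and Sgta (0.103).

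Chromatin accessibility was next compared between rods and cones, taking the Nrl-/- and the double-sorted green cone libraries together as cones (2 against 4 libraries). Called elements at Pde6a, Pde6b, Pde6g and Pde6d were all more open in rods, and those at Pde6c and Pde6h were all more open in cones, at an adjusted p below 0.1 against a log2 fold change of 1. Of 94 elements tested, 12 were more open in rods, where 3.98% of all elements were, and 7 more open in cones, where 18.1% of all elements were. Pde6b had 6, Pde6a 3, Pde6g 2 and Pde6d 1 of the former, and Pde6c had 6 and Pde6h 1 of the latter. Aipl1 had 0 by edgeR, with 0 towards rods and 1 towards cones at an unadjusted p below 0.05. The median log2 fold change was 0.52 over the member elements and -0.13 over all elements. Rod and cone libraries did not overlap at 61 of the 94, or 64.9%, against 56.9% of all elements. Without rod replicate 1 the counts were 5 and 2, and the cone count was 4 without rod replicate 2 and 4 without Nrl-/- replicate 2.

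Each cone type was also compared on its own, against the same rod libraries. Over Nrl-/- photoreceptors, 17 of 95 elements were more open in rods (6.38% of all elements) and 12 in Nrl-/- photoreceptors (21% of all elements). Over double-sorted green cones, 16 of 88 were more open in rods (6.43% of all elements) and 3 in green cones (18.7% of all elements). Without double-sorted replicate 4 the rod count was 31, and without rod replicate 1 or 2 the green cone count was 1. Between double-sorted green cones and Nrl-/- photoreceptors, 0 of 76 elements were called in either direction by edgeR and by DESeq2 (0.0374% of all elements towards green cones and 0.00234% towards Nrl-/- photoreceptors by edgeR), with 1 and 2 at an unadjusted p below 0.05. Without double-sorted replicate 3 or 4, 1 or 4 of them were called towards Nrl-/- photoreceptors. With the study's processed read totals as library sizes, the median over all elements moved from -0.13 to 0.34 for rods over cones, from -0.073 to 0.51 over Nrl-/- photoreceptors and from -0.0074 to 0.50 over double-sorted green cones. The share of all calls that were towards rods moved with it, from 18% to 35.4%, from 23.3% to 40.3% and from 25.6% to 43.5%. Elements at the promoters of 6 rod markers summed to 870 and 887 CPM in rods, 262 and 222 in the Nrl-/- libraries, 110 and 144 in double-sorted and 281 and 221 in single-sorted green cones.

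**Figure D3:**
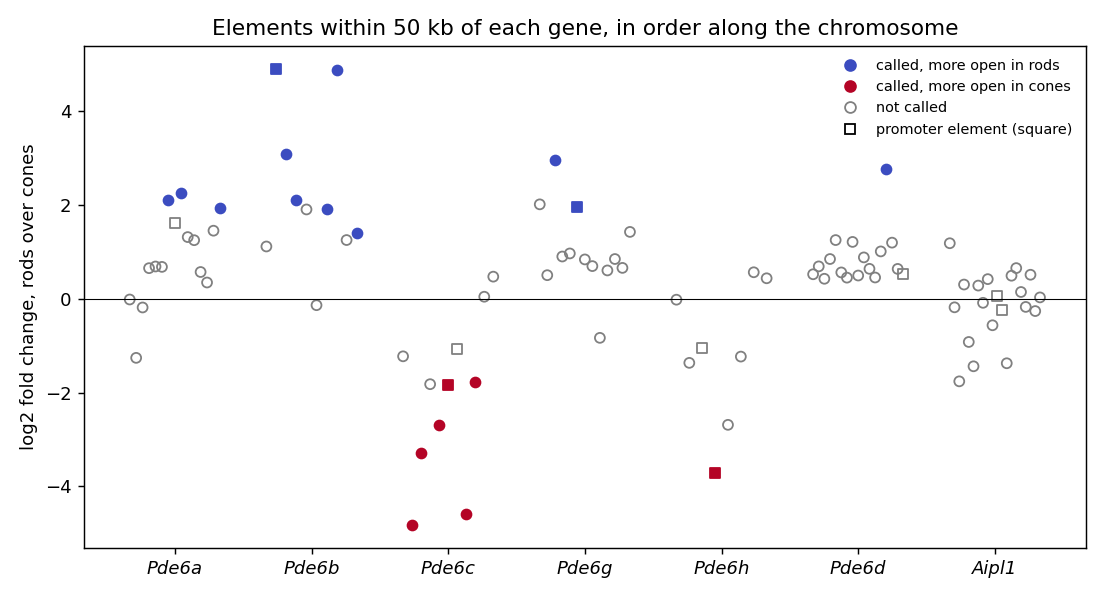
Log2 fold change of rods over cones (y axis) for the 94 elements tested within 50 kb of each gene (x axis, elements in order along the chromosome). Filled points passed the test, blue where more open in rods and red where more open in cones, open points did not, and squares mark promoter elements. Filled points lie above 0 at Pde6a, Pde6b, Pde6g and Pde6d and below 0 at Pde6c and Pde6h, and Aipl1 has none.

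No Pde6a sequence and no Pde6d promoter sequence is given. Parts of some promoter elements, called or not, and of some called intronic elements are shown. They are from the RefSeq GRCm38.p6 genome, on the strand of each gene and 5' to 3', cut to the longest stretch that no annotated exon covers, and capitals mark matches to the motifs searched on both strands. The motifs were CTAATCC (K50 homeodomain, CRX), CTAAGCC (its 3' G variant), TGCTGAC (part of the MAF recognition element, bound by NRL), TGANTCA (bZIP), AGGTCA (nuclear receptor), CATATG (bHLH), TAATTA (Q50 homeodomain) and CTATTTTTA (MEF2).
Pde6b promoter, chr5:108388273-108388372: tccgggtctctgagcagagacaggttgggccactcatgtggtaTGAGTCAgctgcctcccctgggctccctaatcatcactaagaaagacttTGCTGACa
Pde6g promoter, chr11:120453501-120453589: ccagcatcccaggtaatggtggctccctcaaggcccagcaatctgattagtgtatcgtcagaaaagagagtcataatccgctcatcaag
Pde6c promoter, chr19:38132633-38132780: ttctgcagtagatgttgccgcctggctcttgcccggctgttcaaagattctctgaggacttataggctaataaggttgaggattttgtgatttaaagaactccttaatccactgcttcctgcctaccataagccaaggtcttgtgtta
Pde6h promoter, chr6:136954371-136954522: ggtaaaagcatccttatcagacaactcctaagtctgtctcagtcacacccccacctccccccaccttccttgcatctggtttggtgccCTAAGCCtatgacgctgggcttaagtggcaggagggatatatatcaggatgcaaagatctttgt
Aipl1 promoter, chr11:72037510-72037638: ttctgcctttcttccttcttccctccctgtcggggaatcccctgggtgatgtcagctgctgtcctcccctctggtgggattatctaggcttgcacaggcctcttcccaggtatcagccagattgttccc
Pde6c intron 1, chr19:38134120-38134319: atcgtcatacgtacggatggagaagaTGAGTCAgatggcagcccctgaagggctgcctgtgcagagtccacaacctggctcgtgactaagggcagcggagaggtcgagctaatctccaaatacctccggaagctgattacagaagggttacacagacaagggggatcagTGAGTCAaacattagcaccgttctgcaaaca
Pde6d intron 1, chr1:86561878-86562077: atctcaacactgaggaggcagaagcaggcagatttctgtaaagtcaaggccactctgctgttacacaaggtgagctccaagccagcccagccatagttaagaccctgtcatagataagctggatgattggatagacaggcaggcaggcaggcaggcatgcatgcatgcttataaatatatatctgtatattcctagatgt

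The Pde6b promoter held TGCTGAC centred 5 bases and TGANTCA centred 54 bases before the start site. The Pde6h promoter held CTAAGCC 61 bases before it, and the Pde6g element held TGCTGAC 31 bases after it, outside the part shown. The Pde6c intron element held TGANTCA at both 1368 and 1511 bases after the start site. The promoter elements of Pde6c and Aipl1 and the Pde6d intron element held none of the 8 motifs. Of the 95 elements, 4.21% held TGCTGAC, 7.37% TGANTCA, 11.6% CTAATCC, 8.42% CTAAGCC, 15.8% AGGTCA, 3.16% CATATG, 3.16% TAATTA and 1.05% CTATTTTTA. The shares over all elements were 3.98%, 6.28%, 7.61%, 5.61%, 14.9%, 2.50%, 4.71% and 0.609% in that order. A match describes these letters only.

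At the Pde6b promoter element, centred 1 base before the start site, rods gave 67.6 and 68.7 CPM. The Nrl-/- libraries gave 0.415 and 1.36 CPM, the double-sorted green cones 1.56 and 9.0, and the single-sorted ones 18.6 and 15.5. Rods were highest, single-sorted green cones were between, and the double-sorted libraries differed from each other. The log2 fold change was 4.91 ± 0.57 over cones (adjusted p = 0.000535 by edgeR), 6.01 ± 0.31 over Nrl-/- photoreceptors (adjusted p = 3.61e-15 by edgeR) and 3.72 ± 0.51 over double-sorted green cones (adjusted p = 0.00372 by edgeR).

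Further Pde6b elements followed the promoter. An element 44642 bases after the start site, just past the gene's end and nearest to the start site of Atp5k, gave 21.4 and 31.2 CPM in rods but from 0 to 1.66 CPM in the 4 cone libraries. It held TGCTGAC and had a log2 fold change of 4.87 ± 0.53 over cones (adjusted p = 0.0004 by edgeR). In intron 1, an element 960 bases after the start site had 0 counts in both double-sorted libraries. In rods it stood 4.20-fold above a floor of 3 counts in each of these libraries. It was called over cones (adjusted p = 0.0279 by edgeR), but not without rod replicate 1 (0.189) or rod replicate 2 (0.166), by DESeq2 (0.150) or with single-sorted green cones (0.138), which gave 5.13 and 4.57 CPM. By DESeq2 its call over Nrl-/- photoreceptors was lost too (0.126). Summed over its 10 elements, the Pde6b locus held 438 and 439 CPM in rods, 139 and 141 in the Nrl-/- libraries, 59.2 and 151 in double-sorted and 185 and 170 in single-sorted green cones.

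At the Pde6g promoter element, rods gave 73.0 and 70.7 CPM. Lower values came from cones, where the Nrl-/- libraries gave 23.6 and 24.8 CPM, the double-sorted green cones 7.79 and 13.5, and the single-sorted ones 33.2 and 32.0. Both rod libraries were above every other library. The log2 fold change was 1.96 ± 0.33 over cones (adjusted p = 0.0176 by edgeR, 0.111 without rod replicate 1), 1.55 ± 0.16 over Nrl-/- photoreceptors (adjusted p = 0.000992 by edgeR) and 2.75 ± 0.35 over double-sorted green cones (adjusted p = 0.00388 by edgeR). Taking the single-sorted green cones instead, it was 1.10 and did not pass (adjusted p = 0.321). An element 7117 bases after the start site had 0 counts in both double-sorted libraries. It gave 11.9 and 13.5 CPM in rods, a level 5.04-fold above the floor. Its call over cones (adjusted p = 0.0279 by edgeR) was lost without rod replicate 1 (0.144) or rod replicate 2 (0.183) and by DESeq2 (0.156), as was that over Nrl-/- photoreceptors by DESeq2 (0.118).

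At the Pde6a promoter element, rods gave 79.0 and 91.3 CPM. The Nrl-/- libraries gave 41.1 and 37.9 CPM, the double-sorted green cones 16.4 and 9.0, and the single-sorted ones 35.0 and 36.1. Rods were highest, and the element was called over double-sorted green cones (2.71 ± 0.34, adjusted p = 0.0039 by edgeR) but not over cones together (1.61 ± 0.39, adjusted p = 0.105) or over Nrl-/- photoreceptors (1.11 ± 0.14, adjusted p = 0.259). The test over cones passed without Nrl-/- replicate 1 or 2 (0.0546 and 0.0784). It also passed with edgeR's relative log expression scaling in place of TMM (0.0964), with processed read totals (0.031) and with no filter (0.0944). Processed read totals also called the element over Nrl-/- photoreceptors (0.0983). An element in intron 1, 8788 bases after the start site, gave 44.9 and 39.7 CPM in rods but from 7.2 to 10.9 CPM in the 4 cone libraries (2.26 ± 0.29, adjusted p = 0.00316 by edgeR). It was also called over Nrl-/- photoreceptors and over double-sorted green cones, the latter not by DESeq2 (0.128). Single-sorted green cones gave 23.2 and 19.2 CPM, and with them in place of the double-sorted ones neither the test over green cones (0.93, adjusted p = 0.830) nor that over cones (1.45, adjusted p = 0.125) passed. The intron element held 1 CTAATCC match, and an element 3000 bases before the start site held 2. The latter gave 52.8 and 48.4 CPM in rods and was called over cones (2.11 ± 0.37, adjusted p = 0.0155 by edgeR), but not without rod replicate 1 (0.116).

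At the Pde6h promoter element, rods gave 1.25 and 3.76 CPM. Accessibility was higher in cones, as the Nrl-/- libraries gave 38.6 and 39.1 CPM, the double-sorted green cones 24.9 and 31.5, and the single-sorted ones 22.2 and 27.4. All cone libraries were far above rods. The log2 fold change was -3.71 ± 0.46 over cones (adjusted p = 0.000857 by edgeR), -3.92 ± 0.31 over Nrl-/- photoreceptors (adjusted p = 3.96e-10 by edgeR) and -3.47 ± 0.53 over double-sorted green cones (adjusted p = 0.00538 by edgeR). Of the other 7 elements at Pde6h, 2 were called, both towards Nrl-/- photoreceptors over rods. For 1 of them the call was lost by DESeq2 (adjusted p = 0.422) and with processed read totals (0.386). It was also lost without rod replicate 2 (0.192) or Nrl-/- replicate 1 (0.120). The call of the other was lost by DESeq2 (0.102) and without Nrl-/- replicate 2 (0.314). A second promoter element, 1086 bases before the start site used here, was not called in any comparison (-1.05 ± 0.32 over cones).

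At Pde6c, the element over the start site gave 12.1 and 9.03 CPM in rods, and was not called in any of the 4 comparisons, though it was over Nrl-/- photoreceptors without rod replicate 1 (0.0792) and between the cone types without double-sorted replicate 4 (0.0961). The Nrl-/- libraries gave 26.5 and 25.7 CPM, the double-sorted green cones 6.23 and 29.7, and the single-sorted ones 20.5 and 26. Rod and cone libraries overlapped, since double-sorted replicate 3 lay below both rod libraries. A second promoter element, 650 bases before the start site, was called over Nrl-/- photoreceptors (-2.14 ± 0.27, adjusted p = 0.000169 by edgeR) and over cones (-1.84 ± 0.50, adjusted p = 0.0868 by edgeR). The latter call was lost without rod replicate 1 (0.426) or 2 (0.176), double-sorted replicate 4 (0.126) or Nrl-/- replicate 1 (0.193) or 2 (0.150), by DESeq2 (0.577), with processed read totals (0.335) and with no filter (0.104). With processed read totals the call over Nrl-/- photoreceptors was lost as well (-1.62, adjusted p = 0.149).

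The Pde6c element in intron 1, shown above, gave 10.2 and 11.9 CPM in rods. The Nrl-/- libraries gave 42.7 and 48.6 CPM, the double-sorted green cones 21.8 and 36.0, and the single-sorted ones 33.2 and 35.6, so every cone library was above both rod libraries. Its log2 fold change was -1.77 ± 0.35 over cones (adjusted p = 0.0365 by edgeR), not passing without rod replicate 1 (0.219) or rod replicate 2 (0.142), and -2.07 ± 0.21 over Nrl-/- photoreceptors (adjusted p = 1.51e-05 by edgeR). The call over cones was also lost by DESeq2 (0.244), and processed read totals ended both calls (0.315 over cones and 0.161 over Nrl-/- photoreceptors). A distal element 35733 bases before the Pde6c start site, which is also a promoter element of Ffar4, gave 0 and 0.376 CPM in rods, 6.64 and 6.36 in the Nrl-/- libraries and 4.67 and 9.0 in double-sorted green cones. It was called over double-sorted green cones (adjusted p = 0.0148 by edgeR), a call lost without rod replicate 1 (0.371) or rod replicate 2 (0.168) and by DESeq2 (0.106). No other Pde6c element passed that test, but without double-sorted replicate 3 the intron element (0.0284), the one 650 bases before the start site (0.00829) and one 8047 bases before it (0.00217) did, and so did these 3 with single-sorted green cones.

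Few elements were called at Pde6d and Aipl1. At the Pde6d promoter element, which is also a promoter element of Cops7b, rods gave 54.9 and 51.9 CPM and the 4 cone libraries from 28.1 to 41.4 CPM, and it was not called (0.54 ± 0.23). An element in intron 1 of Pde6d, 20807 bases after the start site, gave 28.3 and 31.2 CPM in rods and from 3.12 to 5.4 CPM in the 4 cone libraries. It was called towards rods over cones (2.76 ± 0.34, adjusted p = 0.00162 by edgeR), over Nrl-/- photoreceptors and over double-sorted green cones, whereas the RNA of Pde6d was higher in Nrl-/- photoreceptors. The call over green cones was lost by DESeq2 (0.132) and with single-sorted green cones (1.33, adjusted p = 0.126), which gave 10.8 and 12.8 CPM. Rod and cone libraries did not overlap at 14 of the 17 elements of Pde6d, which was so for 56.9% of all elements. Only 1 of the 17 was called over cones, and their median log2 fold change over cones was 0.64. At the Aipl1 promoter element, rods gave 43.3 and 38.8 CPM, the Nrl-/- libraries 39.4 and 42.3, the double-sorted green cones 39.0 and 36.0 and the single-sorted ones 33.2 and 44.3. These groups overlapped, and the log2 fold change over cones was 0.07 ± 0.22. Of the 20 elements at Aipl1, 1 was called towards rods and 1 towards Nrl-/- photoreceptors when these were compared, and 1 towards double-sorted green cones over rods. Each of these 3 calls was lost by DESeq2 (0.514, 0.835 and 0.987) and without rod replicate 2 (0.150, 0.131 and 0.358). Without rod replicate 1 those towards Nrl-/- photoreceptors and green cones were lost (0.110 and 0.211), as they were with processed read totals (0.398 and 0.307). Without Nrl-/- replicate 2 both calls between rods and Nrl-/- photoreceptors were lost (0.211 and 0.570), and the one towards green cones was lost without double-sorted replicate 3 (0.472) and with no filter (0.109).

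**Figure D4:**
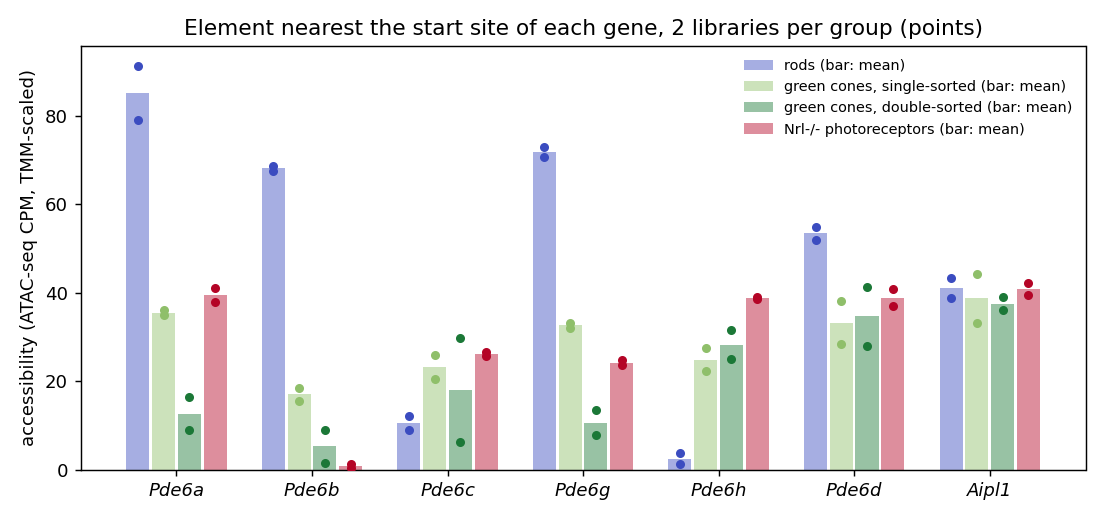
Accessibility (CPM, linear axis from 0) of the element nearest the start site of each gene, with a point for each of the 8 ATAC libraries and a bar at each group's mean. Rods are highest at Pde6a, Pde6b, Pde6g and Pde6d and lowest at Pde6h, the groups overlap at Aipl1, and the double-sorted libraries lie apart at Pde6c.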

How the data were processed

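The authors deposited tables of raw read counts, per the labels and the study's methods made from alignments to GRCm38/mm10. RNA-seq alignment used STAR 2.4.2a, with counting per RefSeq gene by HTSeq 0.6.1p1. For ATAC-seq, Bowtie2 2.2.3 alignments were filtered and counted with bedtools 2.24.0 in merged elements from MACS2 2.1.0 peaks. The 5 rows of unassigned RNA reads (41.3% to 49.2% of a library) were left out. Counts were fitted with edgeR 4.0.16 in R 4.3.3 (quasi-likelihood, TMM, filterByExpr, glmTreat against a log2 fold change of 1), with Benjamini-Hochberg adjustment over all features and thresholds of 0.05 (RNA) and 0.1 (ATAC). Each SE was the absolute log2 fold change divided by the square root of edgeR's quasi-likelihood F statistic for any change. DESeq2 1.42.0 was an alternative. The fits were tested on simulated data. A promoter element overlaps the span from 1000 bp before to 100 bp after a RefSeq start site. ATAC CPM is scaled over all 8 libraries, while each test scales its own. Depth limits low values, and floors cover counting error only, with counts taken as independent. The variance between ATAC replicates was 2.13 times that of such sampling in rods and 4.05 times in double-sorted green cones. A fold above a floor may thus be too high.

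The members and lists were chosen with earlier results of these data known. Named were all members, up to 4 called genes of each list with the largest changes (except an item not reported here), list genes against the direction of their rod or cone form, the 3 most similar profiles per member, and promoter or called elements. Cngb3, Gngt1, Sag, Pde8b, Arl3, Unc119 and the elements described in full were chosen after their values were seen.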

Additional observations from a re-analysis of the deposited data

Results flagged for a closer look

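Of 39 promoter or called elements screened over the 4 cone libraries, 1 had a library far from the others. The Pde6b promoter element was at 9.0 CPM in double-sorted green cone replicate 4, while the other cone libraries gave 0.415, 1.36 and 1.56 CPM, and its gap to the nearest was 0.867 of the range. Chance flags about 1 in 20 groups. Elements at the promoters of rod markers summed to 144 CPM in that library and to 110 CPM in double-sorted replicate 3. Without that library the Pde6b element was still called over cones.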

How the results depend on the processing

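Over the alternatives no direction of a called value reversed. The 5 member RNA calls remained under every alternative. With no fold threshold, 17 phototransduction genes and 1 other phosphodiesterase were called towards rods, and the prenyl list gave 5 towards rods and 8 towards Nrl-/- photoreceptors. Member elements with no fold threshold numbered 33 and 13 for rods and cones, 44 and 20 for rods and Nrl-/- photoreceptors, 35 and 8 for rods and double-sorted green cones, and 1 and 1 for green cones and Nrl-/- photoreceptors. DESeq2 called 2 towards cones, 10 and 6 for rods and Nrl-/- photoreceptors, and 10 and 1 for rods and green cones. Processed read totals gave 3 towards cones and 5 towards Nrl-/- photoreceptors. Within 100 kb there were 19, 28 and 26 towards rods in the 3 rod comparisons and 5 towards green cones, and within 10 kb 7 towards Nrl-/- photoreceptors. Only elements nearest to a member gave 7 and 4 for rods and cones, 8 and 7 for rods and Nrl-/- photoreceptors, and 9 towards rods over green cones. Single-sorted green cones gave 8 and 9 for rods and green cones, and 1 towards green cones over Nrl-/- photoreceptors.

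Leaving out each replicate gave 2 to 3 and 3 to 3 member genes towards rods and Nrl-/- photoreceptors, 10 to 11 and 9 to 9 phototransduction genes, 0 to 0 and 4 to 5 other phosphodiesterases, and 1 to 1 and 1 to 3 prenyl genes. Member elements ran from 5 to 16 and 2 to 9 for rods and cones, 15 to 17 and 8 to 11 for rods and Nrl-/- photoreceptors, 11 to 31 and 1 to 4 for rods and green cones, and 0 to 0 and 0 to 4 for green cones and Nrl-/- photoreceptors.

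With the replicate block, 5 of 5 member genes and 29 of 29 elements (rods and Nrl-/- photoreceptors) were still called, and the prenyl list gave 2 towards Nrl-/- photoreceptors. Same-numbered RNA libraries correlated at 0.172, 0.0768 and 0.0145 in their deviations from the group means, and rod replicate 2 correlated best with Nrl-/- replicate 3 (0.133), so the numbers were not taken as pairs.

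With coding length, the CPM per kilobase in rods was 706 for Pde6a, 5513 for Pde6b, 9.88 for Pde6c, 19906 for Pde6g, 61.2 for Pde6h, 185 for Pde6d and 1265 for Aipl1. In Nrl-/- photoreceptors it was 82.9, 65.7, 1319, 8377, 6429, 568 and 2719 in the same order. The shallow double-sorted libraries limit the comparisons with green cones.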
